A study of Caenorhabditis elegans with 16 samples.

Results

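The ugt genes of *Caenorhabditis elegans* encode UDP-glucuronosyltransferases. Members were all genes of the normalized count table whose name is ugt followed by a number, which gave 66 of the 29351 genes listed. Of these 66 genes, 60 had a mean normalized count of at least 10 over the 16 samples and were tested together with the other genes that passed, 15799 in all. The other 6 are described by their values only.

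UDP-glucuronosyltransferases sit in the membrane of the endoplasmic reticulum and move the sugar of a UDP-sugar onto small lipophilic molecules, among them drugs, plant and bacterial toxins, steroids and bile pigments. The conjugate is more soluble in water and can be pumped out of the cell, so the family is counted with the phase II detoxification enzymes, downstream of the cytochromes P450 and beside the glutathione S-transferases. Mammalian members mostly use UDP-glucuronic acid, whereas glucose conjugates are known from nematodes, where the intestine is a main site of detoxification. Substrates are not given below for single members, because neither the tables nor the annotation assigns one.

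Whole worms were collected at adult day 1 for RNA sequencing, as 4 groups of 4 samples. The groups were rnp-6(G281D) fed *Escherichia coli* BW25113, rnp-6(G281D) fed OP50, wild type N2 fed BW25113 and wild type N2 fed OP50. rnp-6 encodes the worm counterpart of the splicing factor PUF60, G281D is a single amino acid exchange carried as the allele dh1127, OP50 is the standard laboratory food and BW25113 is a K12 strain. The comparisons ask how the mutation changes expression on each food, how the food changes expression in each genotype, and whether the food acts differently in the 2 genotypes. What the replicate numbers stand for is not given in the labels, so p-values measure the spread between these samples, which may be partly technical.

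The totals of normalized counts lay between 36330390 and 38381707 per sample. Dividing each total by the most common low value of its sample gave approximate depths between 32600000 and 48200000. These depths are inferred and are not counts of sequenced reads. Across the 15799 genes, Pearson's r of the log2 values was 0.989 to 0.994 for pairs of samples within a group and 0.972 to 0.991 for pairs from different groups. The level of rnp-6 itself, which a missense allele need not alter, was 0.35 higher on the log2 scale in the mutant on OP50 and 0.44 higher on BW25113. In whole worms, fewer cells of a type and less RNA per cell cannot be told apart. The summed FPKM of 7 intestinal marker genes lay between 344 and 382 in rnp-6(G281D) fed BW25113, between 416 and 444 in rnp-6(G281D) fed OP50, between 363 and 401 in wild type fed BW25113 and between 380 and 409 in wild type fed OP50, and no marker of the 7 was at 0.

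All 66 members are annotated as protein-coding genes in the Ensembl annotation of genome build WBcel235, with predicted proteins of 501 to 558 residues. They are not spread evenly over the genome. Chromosome V carries 41 of them, or 62.1% of the family, against 25.0% of all coding genes. Chromosome IV carries 12, chromosome I carries 5, the X chromosome 4, chromosome III 3 and chromosome II 1. In 11 places members are direct neighbours among the coding genes, and these runs hold 30 of the 66 genes. The longest runs hold 4 genes each, ugt-26, ugt-27, ugt-28 and ugt-25 on chromosome I (4721131 to 4735276) and ugt-5, ugt-4, ugt-6 and ugt-3 on chromosome V (12790676 to 12800271). Neighbouring copies can share reads, and how far the authors' estimation split such reads between them was not tested.

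The levels of the members spanned a wide range in these adults. FPKM, a value scaled by transcript length and by library size, allows members to be ranked within a sample. Averaged over the 16 samples, 14 members had more than 10 FPKM, 31 lay between 1 and 10 and 21 lay below 1, with a median of 2.71. The highest 3 were ugt-62 with 53.7 FPKM, ugt-44 with 32.2 FPKM and ugt-64 with 29.2 FPKM. These 3 genes made up 23.4% of the summed FPKM of the family in rnp-6(G281D) on BW25113, 35.4% in rnp-6(G281D) on OP50, and 24.9% in wild type on either food. ugt-62 alone made up 9.23% of the family sum in rnp-6(G281D) on BW25113, 19.3% in rnp-6(G281D) on OP50, 11.1% in wild type on BW25113 and 10.9% in wild type on OP50. The FPKM of ugt-37 and ugt-38 is a doubtful guide to their rank, since their normalized count per FPKM was 6.5 and 3.1, against a median of 89.4 over the 60 members tested.

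**Figure D1:**
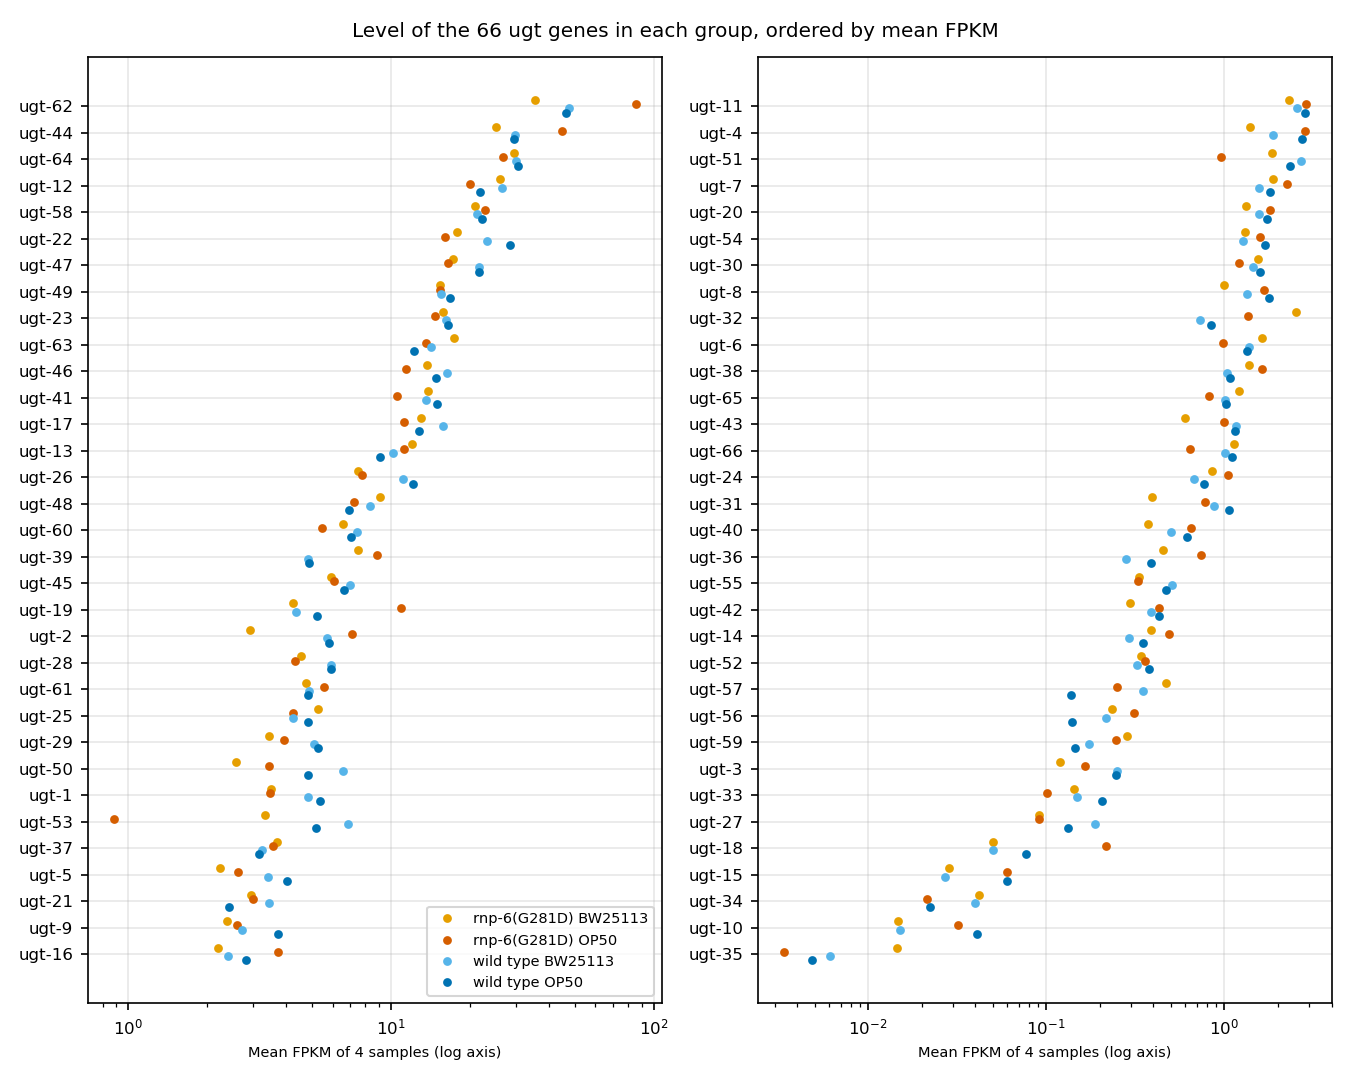
Mean FPKM of 4 samples (horizontal log axis) for each of the 66 ugt genes, ordered from the highest mean level down, with a point for each group of genotype and food. The points of most genes lie close together, while those of ugt-62, ugt-19, ugt-2, ugt-53 and ugt-32 spread apart along the axis.

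Summed over all 66 members, the family had 384 ± 8.19 FPKM in rnp-6(G281D) on BW25113, 443 ± 11.1 in rnp-6(G281D) on OP50, 430 ± 7.15 in wild type on BW25113 and 427 ± 7.26 in wild type on OP50 (SD, n = 4 samples each). The sums of the mutant on BW25113 lay below those of every other sample, between 375 and 394 FPKM. Without ugt-62 the sums were 349 ± 7.99 FPKM in rnp-6(G281D) on BW25113, 358 ± 10.1 in rnp-6(G281D) on OP50, 382 ± 5.68 in wild type on BW25113 and 381 ± 6.79 in wild type on OP50. The mean sum over the other members was thus lower in the mutant than in wild type on both foods. Without ugt-62 the mutant on OP50 no longer had the highest sum. No other member was left out in this way, and ugt-44 was also higher there, with 44.8 FPKM against 29.4 in wild type on OP50. These sums are given as descriptions, with no test.

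In rnp-6(G281D) on OP50, single ugt genes moved in both directions relative to wild type on OP50. ugt-53 was lowest relative to wild type and ugt-19, ugt-56 and ugt-62 were highest. A gene was called when limma gave a Benjamini-Hochberg adjusted p below 0.05 and the log2 fold change (log2FC), taken on log2(normalized count + 1), exceeded 0.5 in size. Of the 60 members 16 were called, 7 upward and 9 downward in the mutant, which is 26.7% of the members, against 11.5% of all genes tested. The share called higher was 11.7% of the members, against 5.9% of all genes, and the share called lower 15%, against 5.6% of all genes. The median log2FC over the 60 members was -0.15, against 0.00 over all genes. The 4 samples of the mutant did not overlap the 4 of wild type for 34 members (56.7%), against 30.7% of all genes.

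ugt-53 (WBGene00020182, chromosome V, 2849343 to 2852028, plus strand) had normalized counts of 102, 86.8, 65.7 and 71.1 in rnp-6(G281D) on OP50, against 421, 472, 495 and 438 in wild type on OP50. Every mutant sample had less than the lowest wild type sample by a wide margin, and the mutant mean was 0.178 times that of wild type. The log2FC was -2.49 ± 0.13 (SE, n = 4 samples per group, limma adjusted p = 5.65e-07). This was the widest difference of any member in any comparison.

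ugt-51 (WBGene00015369, chromosome V, 5175020 to 5177309, minus strand) had 79.3, 54.2, 106 and 82.3 normalized counts in the mutant on OP50, against 177, 158, 247 and 199 in wild type on OP50. Its log2FC was -1.29 ± 0.20 (SE, limma adjusted p = 0.000788), and the groups did not overlap. ugt-33 (WBGene00007946, chromosome V, 10493409 to 10496477) is expressed at a low level, with 11.3, 8.13, 11.3 and 13.5 normalized counts in the mutant, against 24.9, 17.2, 21.6 and 28.1 in wild type. All mutant samples of ugt-33 lay below all wild type samples (log2FC -0.98 ± 0.24, limma adjusted p = 0.0116). On FPKM with a pseudocount of 0.1, the ugt-33 value shrank to -0.59. Its mean FPKM was 0.101 in the mutant and 0.205 in wild type on OP50, so that pseudocount is close to the mutant value itself.

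ugt-19 (WBGene00019515, chromosome IV, 6076686 to 6079952, minus strand) stood at the other end, with 1163, 1093, 1176 and 1149 normalized counts in rnp-6(G281D) on OP50, against 561, 531, 627 and 524 in wild type on OP50. The groups were far apart, the mutant mean being 2.04-fold higher (log2FC 1.03 ± 0.06, SE, limma adjusted p = 8.75e-07). ugt-62 (WBGene00010904, chromosome III, 4537281 to 4540623, minus strand), the most abundant member, had 9479, 9348, 9595 and 9723 normalized counts in the mutant on OP50, against 5162, 5344, 5347 and 4882 in wild type on OP50. The 4 mutant samples agreed within a few percent and all exceeded wild type, and the mean was 1.84-fold higher (log2FC 0.88 ± 0.03, SE, limma adjusted p = 3.33e-08).

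ugt-56 (WBGene00011453, chromosome V, 12258982 to 12261215) had 20.6, 25.3, 20.4 and 31.6 normalized counts in the mutant on OP50, against 12.9, 7.07, 12.4 and 16.5 in wild type on OP50. The samples of ugt-56 did not overlap (log2FC 0.98 ± 0.28, SE, limma adjusted p = 0.023), but the level is low. The call of ugt-56 was lost without wild type OP50 replicate 2 (adjusted p = 0.052), without rnp-6(G281D) OP50 replicate 2 (adjusted p = 0.0529) and without rnp-6(G281D) OP50 replicate 4 (adjusted p = 0.061).

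The other members called higher in the mutant on OP50 were ugt-36 (log2FC 0.86), ugt-32 (0.84), ugt-39 (0.84) and ugt-44 (0.60), with limma adjusted p between 6.06e-05 and 0.00698. The other members called lower were ugt-22 (-0.83), ugt-26 (-0.62), ugt-1 (-0.61), ugt-5 (-0.58), ugt-20 (-0.52) and ugt-41 (-0.51), with adjusted p between 7.65e-07 and 0.0119. ugt-22 is the most abundant of the members that were lower, with 2744, 2554, 2705 and 2332 normalized counts in the mutant on OP50, against 4671, 4635, 4524 and 4501 in wild type on OP50. It overlaps srz-29 on the opposite strand, and whether the authors' estimation used strand is not stated. The call of ugt-20 depended on the table used. Its normalized count per FPKM was 51.7 in the mutant on OP50, against 73.7 in wild type on OP50, and on FPKM its difference was 0.04 (adjusted p = 0.9). The 44 members not called had log2FC between -0.81 and 0.73, and 20 of them had an adjusted p below 0.05 with a change smaller than the 0.5 limit. A fit that took the replicate number as a block added the call of 1 more member, ugt-66 (log2FC -0.81, limma adjusted p = 0.0572 without the block and 0.0165 with it).

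**Figure D2:**
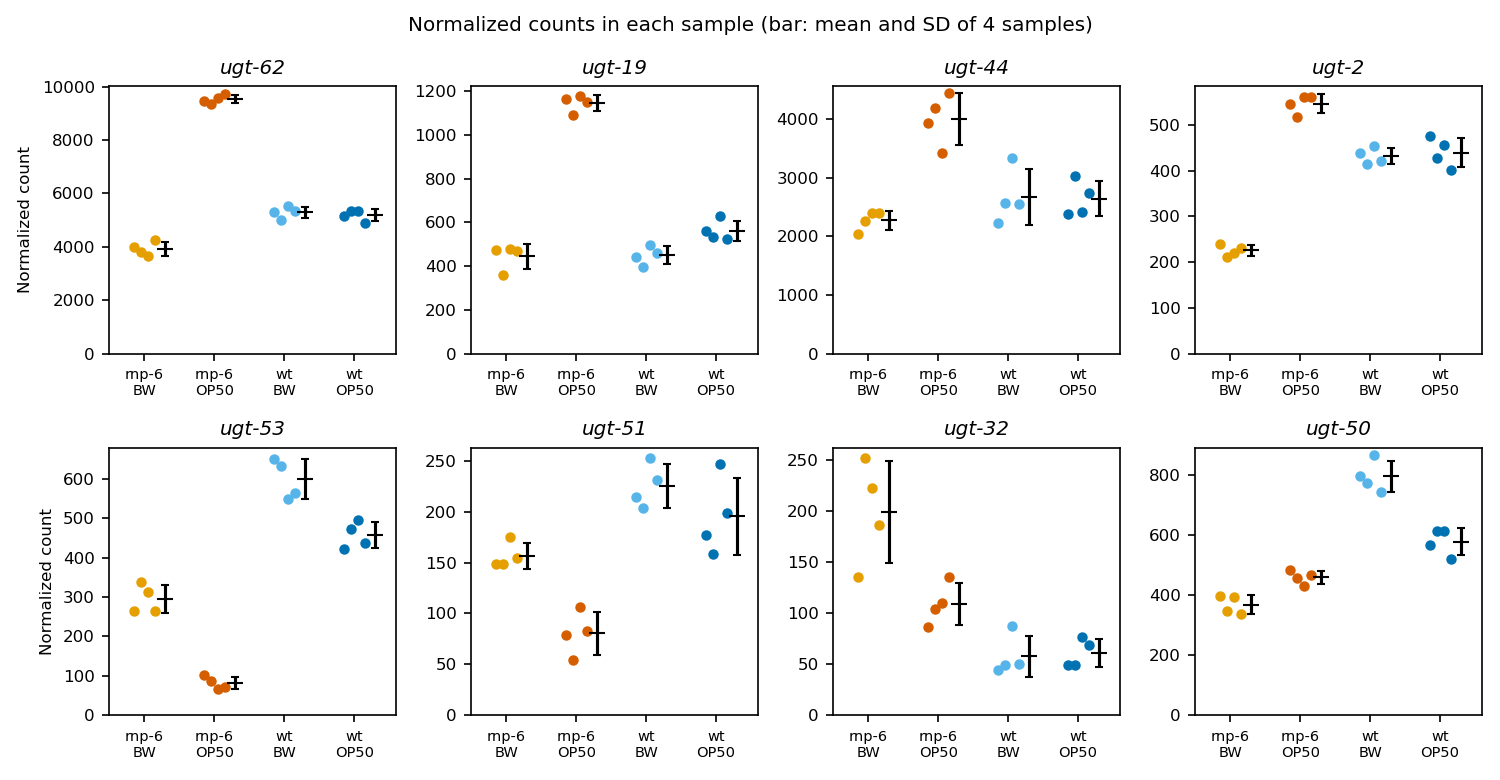
Normalized count (vertical axis, from 0) of 8 ugt genes in each of the 16 samples, a point per sample, with the mean and SD of each group of 4 beside the points. rnp-6(G281D) on OP50 stands highest for ugt-62, ugt-19, ugt-44 and ugt-2 and lowest for ugt-53 and ugt-51, while rnp-6(G281D) on BW25113 stands highest for ugt-32 and lowest for ugt-50.

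On BW25113, the difference between the genotypes ran mostly downward. Of the 60 members 11 were called, 2 higher and 9 lower in rnp-6(G281D) than in wild type, or 18.3% of the members, against 5.68% of all genes tested. The share called higher was 3.33%, against 2.22% of all genes, and the share called lower 15%, against 3.47% of all genes. The median log2FC was -0.12 over the members and 0.00 over all genes. The groups did not overlap for 24 members (40%), against 20.3% of all genes.

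ugt-32 (WBGene00018543, chromosome V, 3841794 to 3844007, minus strand) had 135, 252, 223 and 186 normalized counts in rnp-6(G281D) on BW25113, against 43.8, 49, 87.4 and 49.9 in wild type on BW25113. All mutant samples exceeded all wild type samples, although both groups were spread, and the mean was 3.46-fold higher (log2FC 1.79 ± 0.24, SE, limma adjusted p = 0.000534). On OP50 its counts were 86.5, 104, 110 and 135 in the mutant, against 48.9, 49.5, 76.2 and 68.5 in wild type, again without overlap (log2FC 0.84 ± 0.19, adjusted p = 0.00698). ugt-39 was the other member called higher on BW25113, with a log2FC of 0.63 ± 0.09 (adjusted p = 0.000709), and was called higher on OP50 too.

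ugt-31 (WBGene00021464, chromosome I, 2333338 to 2338693) had 87.7, 96, 65.2 and 44 normalized counts in the mutant on BW25113, against 182, 165, 148 and 148 in wild type on BW25113. No sample of the mutant reached the lowest of wild type (log2FC -1.18 ± 0.22, SE, limma adjusted p = 0.00428). ugt-50 (WBGene00011564, X chromosome, 12691573 to 12695652, plus strand) had 395, 348, 394 and 335 normalized counts in the mutant on BW25113, against 797, 775, 865 and 744 in wild type on BW25113. The mutant mean of ugt-50 was 0.463 times that of wild type, with tight groups (log2FC -1.11 ± 0.07, limma adjusted p = 3.13e-06). ugt-50 overlaps nhr-26 on the opposite strand and has 5 annotated transcripts. Its normalized count per FPKM on BW25113 was 142.6 in the mutant and 121.1 in wild type. The difference was therefore wider on FPKM, with means of 2.58 and 6.57. Whether the mix of its transcripts differed was not tested.

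ugt-53 was lower in the mutant on this food as well, with 265, 338, 313 and 265 normalized counts in rnp-6(G281D) on BW25113, against 650, 633, 550 and 563 in wild type on BW25113. The groups were again apart, with a smaller log2FC of -1.02 ± 0.09 (SE, limma adjusted p = 3.93e-05). ugt-2 (WBGene00007073, chromosome V, 10398801 to 10401307, plus strand) had 240, 212, 220 and 230 normalized counts in the mutant on BW25113, against 438, 415, 454 and 420 in wild type on BW25113 (log2FC -0.93 ± 0.07, adjusted p = 9.16e-06). On OP50 the order of the genotypes was the other one for ugt-2, with 547, 517, 561 and 562 normalized counts in the mutant, against 475, 427, 455 and 401 in wild type. That OP50 difference had a log2FC of 0.32 and an adjusted p of 0.00371 and was below the size limit for a call.

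ugt-43 (WBGene00008485, chromosome IV, 10464588 to 10467297) had 68.9, 54.6, 66.8 and 60.9 normalized counts in the mutant on BW25113, against 102.9, 139.3, 111.8 and 114.1 in wild type on BW25113 (log2FC -0.88 ± 0.14, SE, limma adjusted p = 0.00183). The mutant samples all lay below those of wild type. The remaining members called lower were ugt-5 (log2FC -0.60), ugt-29 (-0.57), ugt-26 (-0.54) and ugt-51 (-0.52), with adjusted p between 1.59e-05 and 0.00556. The value of ugt-51 is close to the size limit and its call was lost without any 1 of wild type BW25113 replicate 3 (log2FC -0.46), rnp-6(G281D) BW25113 replicate 1 (-0.50) and rnp-6(G281D) BW25113 replicate 2 (-0.50). The replicate block added the call of ugt-36 (log2FC 0.82, limma adjusted p = 0.0504 without the block and 0.0264 with it).

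The 2 genotype comparisons share no sample. Both called ugt-32 and ugt-39 higher and ugt-53, ugt-51, ugt-5 and ugt-26 lower, which is 6 of the 16 calls on OP50 and 6 of the 11 on BW25113. No member was called in opposite directions. Over the 60 members the log2FC of the 2 comparisons correlated with Pearson's r of 0.54 and Spearman's rho of 0.51, and 43 members had the same sign, as a description across genes that are not independent of each other. The shared calls, signs and correlations were not computed over all genes. Whether they are particular to the ugt genes was not tested.

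Markers of cell types moved with genotype too. The intestinal marker mtl-2 was lower in the mutant on OP50 (-2.73) and on BW25113 (-1.47), and none of the other 6 intestinal markers tested was called. On OP50 the mean counts of the other 6 were all higher in the mutant than in wild type. The median log2FC over the 7 tested was 0.14 on OP50 and -0.03 on BW25113. The hypodermal marker dpy-7 was higher in the mutant on OP50 (1.52, limma adjusted p = 0.0397) and on BW25113 (2.09, adjusted p = 0.0241), as 1 of 4 tested. Its counts were low and its samples overlapped on OP50, the lowest of the mutant being 21.9 and the highest of wild type 27.3. On OP50 the germline gene glh-1 was lower (-0.58), as 1 of 6 tested, and the pharynx list's marg-1 was higher (0.51), as 1 of 3 tested. The summed FPKM of the 6 germline markers lay between 584 and 599 in the mutant, against 668 and 698 in wild type on OP50, and between 583 and 645 in the mutant, against 632 and 683 in wild type on BW25113. The hypodermal sums overlapped, lying between 1233 and 1519 FPKM in the mutant and between 1265 and 1397 in wild type on OP50. The part of these markers in the ugt differences was not tested.

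In rnp-6(G281D), more ugt genes were lower than higher on BW25113 relative to OP50. Of the 60 members 14 were called, 4 higher and 10 lower, or 23.3% of the members, against 9.36% of all genes tested. The share called higher was 6.67%, against 2.15% of all genes, and the share called lower 16.7%, against 7.22% of all genes. The median log2FC was -0.03 over the members and 0.00 over all genes. The groups did not overlap for 23 members (38.3%), against 23.1% of all genes. This comparison uses the same mutant OP50 samples as the OP50 genotype comparison, so a high or low value in those samples enters both with opposite sign.

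ugt-53 rose most, with 265, 338, 313 and 265 normalized counts in rnp-6(G281D) on BW25113, against the 102, 86.8, 65.7 and 71.1 of rnp-6(G281D) on OP50. The mean was 3.63-fold higher on BW25113 (log2FC 1.86 ± 0.15, SE, limma adjusted p = 1.51e-05). The counts of the mutant on BW25113 still lay below every wild type sample on either food.

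ugt-19 fell, with 473, 359, 477 and 470 normalized counts in the mutant on BW25113, against 1163, 1093, 1176 and 1149 in the mutant on OP50 (log2FC -1.37 ± 0.09, SE, limma adjusted p = 2.59e-06). ugt-62 fell, with 4011, 3792, 3649 and 4259 normalized counts on BW25113, against 9479, 9348, 9595 and 9723 on OP50 (log2FC -1.28 ± 0.04, adjusted p = 6.65e-08). ugt-2 fell, with 240, 212, 220 and 230 on BW25113, against 547, 517, 561 and 562 on OP50 (log2FC -1.27 ± 0.07, adjusted p = 8.11e-07). For these 3 genes, all mutant samples on BW25113 had less than 0.5 times the highest OP50 sample, and the groups were far apart.

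ugt-31 had 87.7, 96, 65.2 and 44 normalized counts in the mutant on BW25113, against 142.1, 143.7, 148.7 and 130.8 in the mutant on OP50 (log2FC -0.999 ± 0.22, SE, limma adjusted p = 0.00989). ugt-51 had 148, 149, 175 and 155 on BW25113, against 79.3, 54.2, 106 and 82.3 on OP50 (log2FC 0.99 ± 0.18, adjusted p = 0.00452). Neither gene's groups overlapped. The remaining calls were ugt-32 (0.84) and ugt-6 (0.70), higher, and ugt-44 (-0.81), ugt-16 (-0.80), ugt-40 (-0.74), ugt-36 (-0.70), ugt-43 (-0.66) and ugt-8 (-0.64), lower, with adjusted p between 4.51e-05 and 0.0404. The samples of ugt-32 only just separated, the lowest on BW25113 and the highest on OP50 both being 135. Without the filter on low values, which raises the number of genes adjusted for, the calls of ugt-31 (adjusted p = 0.0569), ugt-32 (0.0731), ugt-6 (0.0503), ugt-36 (0.0754), ugt-40 (0.0591) and ugt-8 (0.119) were lost. The calls of ugt-36, ugt-40 and ugt-8 were also each lost without any 1 of 6 of the 8 samples (adjusted p between 0.0544 and 0.105) and under quantile normalization.

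Markers of other tissues moved with this comparison. All 6 sperm marker genes on the list, among them those of major sperm proteins and sperm phosphatases, were called lower on BW25113 in the mutant. Their median log2FC was -1.09. In wild type 4 of the 6 were called lower on BW25113, and the mean counts of all 6 were lower there. The wild type median was -0.68. None of the 6 was called between genotypes on OP50 and 1 was called lower in the mutant on BW25113. Of the 7 intestinal markers tested, only the metallothionein gene mtl-2 was called, higher on BW25113 in the mutant (1.97) and in wild type (0.70). In the mutant the others were all lower on BW25113, by less than the limit. They ran from -0.31 for act-5 (limma adjusted p = 0.000123) to -0.15 for elt-7 (adjusted p = 0.47). The median over the 7 was -0.19 in the mutant and 0.045 in wild type. Of the 4 hypodermal markers tested, the cuticle collagen gene dpy-7 was called higher on BW25113 in the mutant (1.57, limma adjusted p = 0.0274). The samples of dpy-7 overlapped, the lowest on BW25113 having 95.2 normalized counts and the highest on OP50 99.4. The part of these markers in the ugt values was not tested.

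In wild type, few ugt genes were called between the foods. ugt-57 (WBGene00017154, X chromosome, 6991727 to 6994162) was the only member called of the 60, or 1.67%, against 3.33% of all genes tested. It was higher on BW25113, where 1.67% of the members and 0.741% of all genes were called higher. No member was called lower, against 2.59% of all genes. The groups did not overlap for 13 members (21.7%), against 13.4% of all genes, and 20 of the 60 had an unadjusted limma p below 0.05, a limit passed by 21% of all genes.

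ugt-57 had 24.1, 32.7, 52.4 and 21.1 normalized counts in wild type on BW25113, against 8.57, 14.1, 14.4 and 14 in wild type on OP50. The lowest sample on BW25113 exceeded the highest on OP50 (log2FC 1.22 ± 0.30, SE, limma adjusted p = 0.0346), at a low level of expression. Its call was lost without any 1 of 6 of the 8 samples, wild type OP50 replicates 1, 2, 3 and 4 (adjusted p between 0.0501 and 0.0997) and wild type BW25113 replicates 2 and 3 (adjusted p = 0.0931 and 0.0747). In the mutant ugt-57 had 37.9, 39.3, 71.9 and 30.4 normalized counts on BW25113, against 22.7, 38.9, 15.1 and 15.8 on OP50, where 1 sample on OP50 reached into the other group (log2FC 0.95, adjusted p = 0.0779).

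Of the members that differed most between foods in the mutant, ugt-62 and ugt-2 were close together in wild type. ugt-62 had 5312, 5022, 5517 and 5335 normalized counts in wild type on BW25113, against 5162, 5344, 5347 and 4882 in wild type on OP50 (log2FC 0.03 ± 0.04, SE, limma adjusted p = 0.695). ugt-2 had 438, 415, 454 and 420 on BW25113, against 475, 427, 455 and 401 on OP50 (log2FC -0.02 ± 0.07, adjusted p = 0.89). For both genes the samples on the 2 foods overlapped. Changes below the size limit did pass the adjusted p in wild type for 8 further members, among them ugt-50 (log2FC 0.46), ugt-53 (0.39), ugt-12 (0.26), ugt-22 (-0.30) and ugt-19 (-0.32). Without the size limit, 9 of the 60 members passed, against 6.61% of all genes. The samples of ugt-53 and ugt-19 did not overlap between the foods in wild type, with 650, 633, 550 and 563 normalized counts of ugt-53 on BW25113, against 421, 472, 495 and 438 on OP50. Under the replicate block, 2 members were called, ugt-57 and ugt-4. ugt-4, with 131, 88.8, 266 and 184 normalized counts on BW25113, against 167, 169, 337 and 270 on OP50, had a log2FC of -0.54, with limma adjusted p = 0.371 without the block and 0.013 with it.

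**Figure D3:**
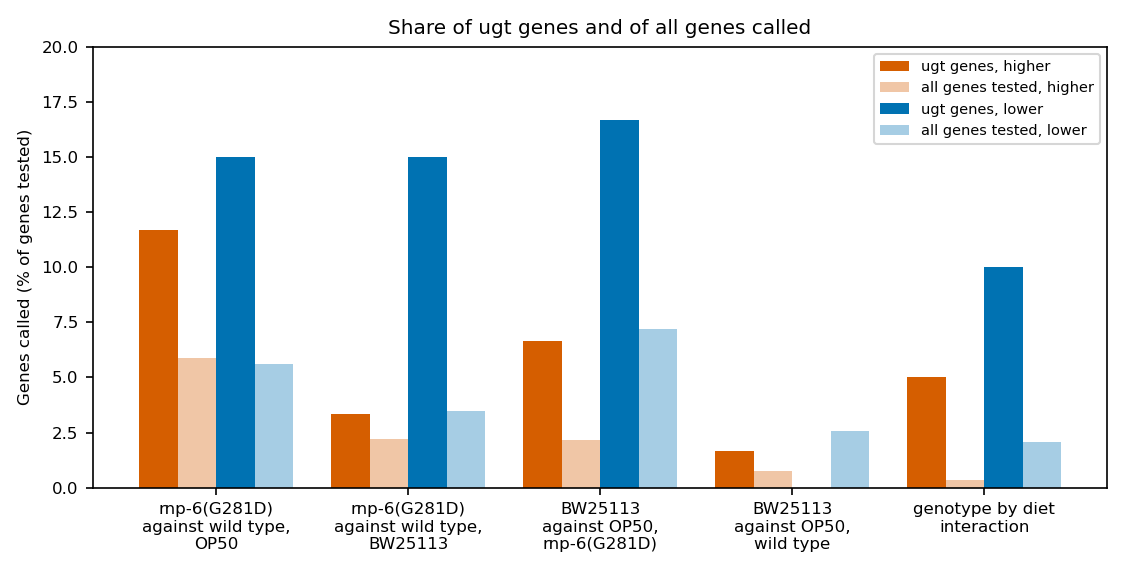
Percent of the 60 ugt genes tested (dark bars) and of all 15799 genes tested (light bars) that were called higher or lower in each comparison, from 0. The members' bars exceed those of all genes in every comparison except BW25113 against OP50 in wild type, where no member was called lower.

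Whether the food acted differently in the 2 genotypes was tested with the interaction term, the diet log2FC in rnp-6(G281D) minus that in wild type. Of the 60 members 9 were called, 3 with a positive and 6 with a negative difference, or 15%, against 2.42% of all genes tested. The share with a positive difference was 5%, against 0.361% of all genes, and with a negative difference 10%, against 2.06% of all genes. Under the replicate block, 13 members were called, against 2.99% of all genes. The 4 added were ugt-51 (0.77, limma adjusted p = 0.00558), ugt-32 (0.95, adjusted p = 0.0275), ugt-25 (0.52, adjusted p = 0.0107) and ugt-66 (1.01, adjusted p = 0.0269). Without the block their adjusted p lay between 0.0756 and 0.3.

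The 3 widest negative differences were those of ugt-62 (-1.31 ± 0.06, SE, limma adjusted p = 1.27e-09), ugt-2 (-1.25 ± 0.09, adjusted p = 3.29e-07) and ugt-19 (-1.05 ± 0.12, adjusted p = 4.2e-05). For all 3, the mutant on OP50 was the group that stood above the other 3. ugt-62 was in addition lower in the mutant than in wild type on BW25113 (log2FC -0.43, adjusted p = 0.000155), below the size limit for a call. ugt-19 differed by -0.02 between the genotypes on BW25113 (adjusted p = 0.927), and its samples overlapped there, with 473, 359, 477 and 470 normalized counts in the mutant, against 443, 398, 496 and 459 in wild type.

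ugt-44 (WBGene00008486, chromosome IV, 10469741 to 10471899, plus strand) is the second most abundant member. It had 2041, 2263, 2392 and 2390 normalized counts in the mutant on BW25113, against 3938, 4192, 3421 and 4442 in the mutant on OP50, and 2227, 2559, 3340 and 2546 in wild type on BW25113, against 2374, 3022, 2422 and 2742 in wild type on OP50. The mutant on OP50 again lay above all other samples, and wild type overlapped between the foods (interaction -0.82 ± 0.15, SE, limma adjusted p = 0.00317). ugt-50 showed another order. It had 395, 348, 394 and 335 normalized counts in the mutant on BW25113, against 482, 456, 430 and 468 in the mutant on OP50, and 797, 775, 865 and 744 in wild type on BW25113, against 566, 613, 612 and 520 in wild type on OP50. The food thus moved ugt-50 in opposite directions in the 2 genotypes, with a log2FC of -0.32 in the mutant and 0.46 in wild type (interaction -0.78 ± 0.10, adjusted p = 8.44e-05). ugt-43 followed with -0.73 (adjusted p = 0.0393).

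The positive differences were those of ugt-53 (1.47 ± 0.17, SE, limma adjusted p = 3.64e-05), ugt-6 (0.71, adjusted p = 0.0339) and ugt-41 (0.54, adjusted p = 0.0298). ugt-53 was higher on BW25113 in both genotypes, by 1.86 on the log2 scale in the mutant and 0.39 in wild type. ugt-6 had 196, 156, 122 and 139 normalized counts in the mutant on BW25113, against 101, 77.7, 96.1 and 98.1 in the mutant on OP50, while wild type had 127, 135, 133 and 123 on BW25113, against 139, 115, 130 and 141 on OP50. The mutant on OP50 was thus the lowest group for ugt-6. The calls of ugt-43, ugt-6 and ugt-41 were each lost without any 1 of 9 of the 16 samples, with adjusted p up to 0.0881 for ugt-43, 0.0743 for ugt-6 and 0.0699 for ugt-41. The diet log2FC of the 60 members correlated between the genotypes with Pearson's r of 0.42 and Spearman's rho of 0.36, and 34 members had the same sign, again as a description across genes. The 2 diet comparisons share no sample, and no member was called in both. These figures, too, were not computed over all genes.

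**Figure D4:**
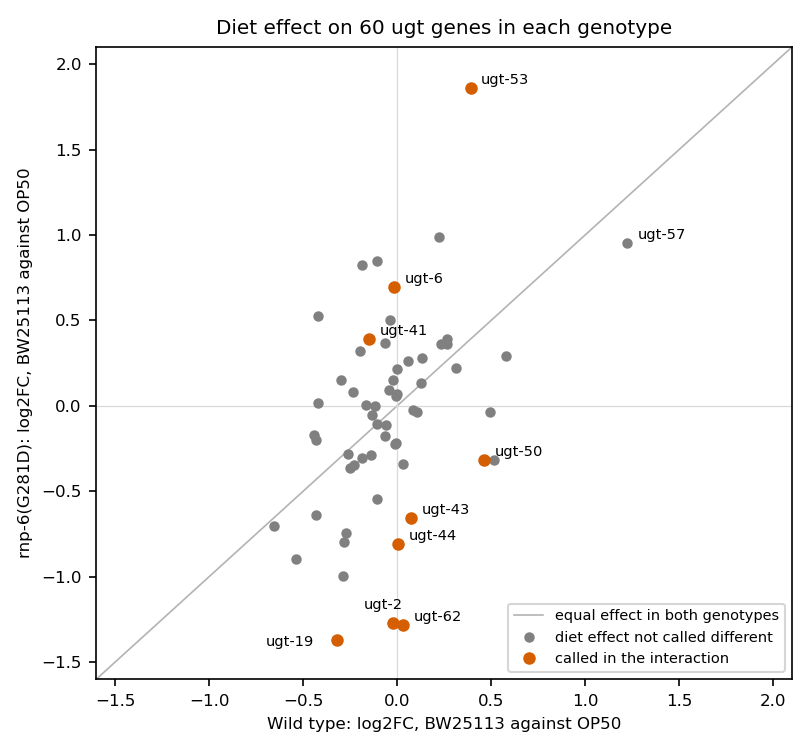
Diet log2FC (BW25113 against OP50) in rnp-6(G281D), vertical axis, and in wild type, horizontal axis, for each of the 60 ugt genes tested, with the line of equal effects. Orange points are the 9 members called in the interaction, of which ugt-19, ugt-62 and ugt-2 lie far below the line and ugt-53 far above it.

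Across the 4 pairs of groups, 26 of the 60 members (43.3%) were called at least once and 34 were never called, against 18.8% of all genes called at least once. Of the 26, 13 were called in 1 pair, 10 in 2 pairs and 3 in 3 pairs. ugt-53 was called lower in the mutant on OP50 (-2.49), lower in the mutant on BW25113 (-1.02) and higher on BW25113 in the mutant (1.86). ugt-51 was called in the same 3 pairs in the same directions (-1.29, -0.52 and 0.99). ugt-32 was called higher in all 3 (0.84, 1.79 and 0.84), so its level was raised in the mutant on OP50 and further on BW25113. For ugt-62, ugt-19 and ugt-44, the value in the mutant against wild type on OP50 was 0.88, 1.03 and 0.60, and the value of BW25113 against OP50 in the mutant -1.28, -1.37 and -0.81. These 2 comparisons share the mutant OP50 samples, so the opposite signs are not independent.

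**Figure D5:**
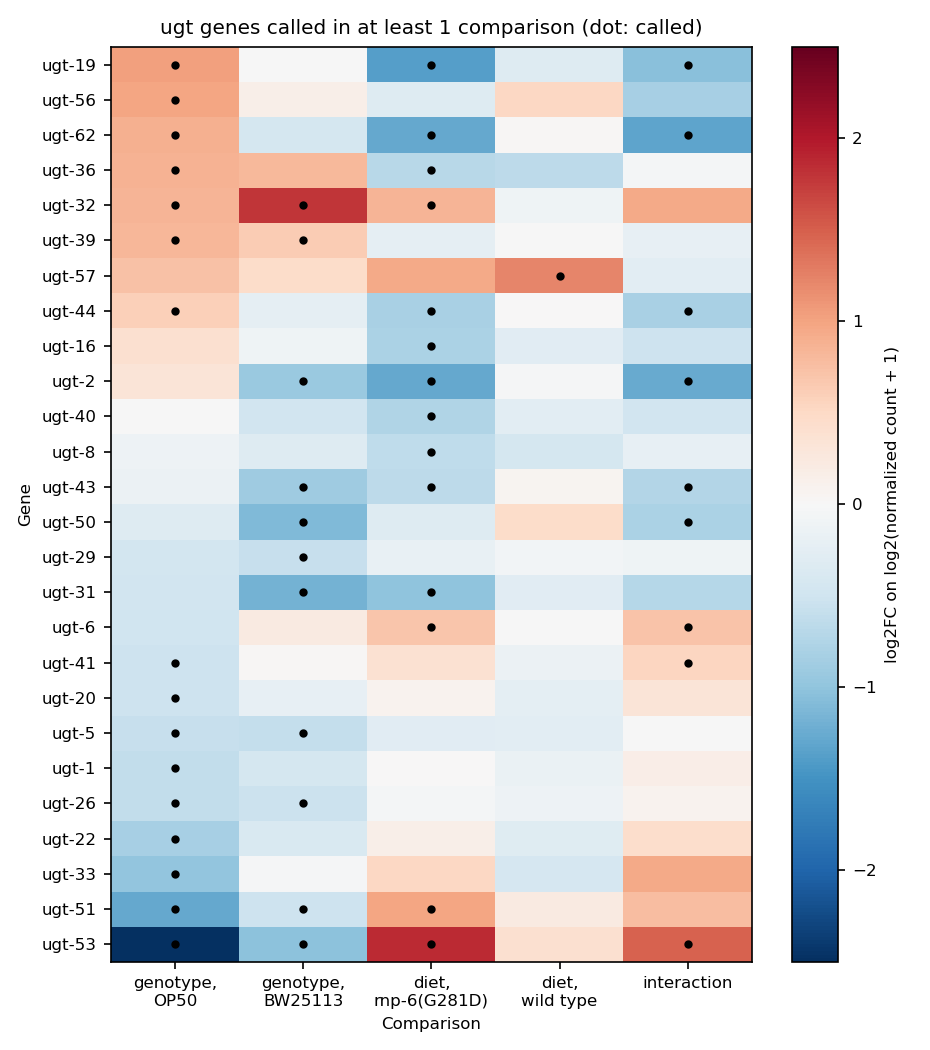
log2FC on log2(normalized count + 1), as colour (red higher, blue lower), of the 26 ugt genes called in at least 1 pair of groups, for the 4 pairs and the interaction, with a dot where a gene was called. The column for diet in wild type is pale except for ugt-57, and ugt-53 has the deepest blue under genotype on OP50 and the deepest red under diet in rnp-6(G281D).

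Neighbouring copies did not always move together. ugt-19 and ugt-20 lie side by side on chromosome IV (6076686 to 6083600). On OP50, ugt-19 was called higher and ugt-20 lower in the mutant (the call of ugt-20 with the doubt named above). ugt-20 had 91.6, 83.2, 80.7 and 98.1 normalized counts in the mutant, against 132, 144, 128 and 105 in wild type. ugt-1 and ugt-2 are neighbours on chromosome V (10395663 to 10401307). ugt-1 had 251, 259, 242 and 231 normalized counts in the mutant on OP50, against 406, 352, 370 and 373 in wild type on OP50 (log2FC -0.61, limma adjusted p = 0.000105), whereas ugt-2 was not lower there. In the pair ugt-43 and ugt-44 on chromosome IV (10464588 to 10471899), both genes were called lower on BW25113 in the mutant (-0.66 and -0.81), and only ugt-44 was called higher in the mutant on OP50. In the run of 4 on chromosome I only ugt-26 was called, with 823, 796, 788 and 724 normalized counts in the mutant on OP50, against 1169, 1213, 1263 and 1164 in wild type on OP50. Across the whole family, 12 members overlap another coding gene, among them ugt-64, ugt-22, ugt-47 and ugt-50, each with a gene on the opposite strand.

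Several abundant members were never called. ugt-64 (WBGene00015577, chromosome V, 3503080 to 3506352, minus strand) had 3129, 3261, 3029 and 3328 normalized counts in rnp-6(G281D) on BW25113, 2953, 2786, 2980 and 2775 in rnp-6(G281D) on OP50, 3252, 3195, 3314 and 3186 in wild type on BW25113 and 3081, 3156, 3520 and 3388 in wild type on OP50. The mutant on OP50 was the lowest group, with a log2FC of -0.19 ± 0.05 against wild type on OP50 (SE, limma adjusted p = 0.00858), below the size limit. ugt-12 was higher on BW25113 in both genotypes by less than the limit, by 0.39 in the mutant (adjusted p = 0.00127) and 0.26 in wild type (adjusted p = 0.000615). For each of the 42 calls between pairs of groups, the samples did not overlap and the exact permutation test of the difference in means, two-sided, gave p = 0.0286, the smallest that 4 against 4 samples allow. That p restates the separation of the samples. The calls were made on these same values, so neither is separate support for them.

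The 6 members under the filter were ugt-38, ugt-18, ugt-15, ugt-34, ugt-10 and ugt-35, with mean normalized counts between 0.455 and 8.44. Of these, ugt-18 was uneven between groups, with 3.25, 4.13, 5.67 and 1.05 normalized counts in rnp-6(G281D) on BW25113, against 16.5, 16.3, 16.6 and 27.1 in rnp-6(G281D) on OP50, and 4.38, 0, 6.12 and 9.31 in wild type on BW25113, against 6.86, 3.03, 4.12 and 10.7 in wild type on OP50. All 4 samples of the mutant on OP50 exceeded the other 12. When the filter was left out, ugt-18 was called lower on BW25113 in the mutant. ugt-35 had at most 2.19 normalized counts in any sample.

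Transcripts of genes for the supply of the sugar donor and for the removal of the nucleotide were followed in 2 short lists. Nucleotide levels and enzyme activities are not part of these data. Of the 5 genes for making and carrying UDP-sugars, 4 were tested, and none was called in any pair of groups. gale-1, which encodes the enzyme that interconverts UDP-glucose and UDP-galactose, had a negative interaction (-0.60 ± 0.07, SE, limma adjusted p = 5.02e-05). The 3 nucleoside diphosphatase genes of the endoplasmic reticulum and Golgi, whose enzymes break down the UDP released by sugar transfer, were not called in any pair or in the interaction.

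Of the 16 genes listed as regulators of detoxification genes, 15 were tested. On OP50, 1 was called higher and 1 lower in the mutant, or 13.3%, close to the 11.5% of all genes. pqm-1, a zinc finger transcription factor that acts opposite to DAF-16 downstream of insulin signalling, was higher (log2FC 1.21, limma adjusted p = 0.000631), and nhr-114, a nuclear hormone receptor related to HNF4, was lower (-0.52, adjusted p = 0.0359), although its samples overlapped between the genotypes. Between foods in the mutant, pqm-1 was lower on BW25113 (-1.23, adjusted p = 0.000455) and no other regulator was called (6.67%, against 9.36% of all genes). None of the 15 was called between foods in wild type or between genotypes on BW25113, against 3.33% and 5.68% of all genes. In the interaction nhr-8, a nuclear hormone receptor with a known part in resistance to toxins, had a negative difference (-0.68, adjusted p = 0.00145). No other regulator was called there (6.67%, against 2.42% of all genes).

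The pgp and mrp genes encode ABC transporters, some of which export drugs and conjugates, and 21 of the 22 were tested. Relative to wild type on OP50, the mutant had 2 of them higher and 3 lower, pgp-1 (log2FC 1.17) and pgp-3 (0.63) against pgp-5 (-1.32), pgp-13 (-0.89) and pgp-6 (-0.86). On BW25113, 1 was higher and 2 lower, pgp-1 (1.21) against pgp-5 (-1.47) and pgp-10 (-0.57). Between foods, 2 were higher and 4 lower on BW25113 in the mutant, and 1 was higher and 3 lower on BW25113 in wild type. The shares called were 23.8% and 14.3% between genotypes on OP50 and BW25113, against 11.5% and 5.68% of all genes. Between foods they were 28.6% in the mutant and 19% in wild type, against 9.36% and 3.33% of all genes. mrp-5, whose product exports heme from intestinal cells, was higher on BW25113 in both genotypes, by 0.66 in the mutant (limma adjusted p = 4.29e-05) and 0.81 in wild type (adjusted p = 6.56e-06).

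Set beside the other families of detoxification enzymes, the cyp genes, which encode cytochromes P450, had 57 of 74 tested. For the mutant against wild type, 12 passed upward and 7 downward on OP50 (33.3%) and 3 upward and 3 downward on BW25113 (10.5%). For BW25113 against OP50, 3 passed upward and 13 downward in the mutant (28.1%) and 1 upward and 9 downward in wild type (17.5%). Of the gst genes, which encode glutathione S-transferases, 35 of 44 were tested. For the mutant against wild type, 7 passed upward and 2 downward on OP50 (25.7%) and 2 upward and 1 downward on BW25113 (8.57%). For BW25113 against OP50, 1 passed upward and 5 downward in the mutant (17.1%) and 3 upward and none downward in wild type (8.57%). In the interaction 10.5% of the cyp genes and 14.3% of the gst genes were called, against 15% of the ugt genes and 2.42% of all genes. The ugt shares were 26.7% and 18.3% between genotypes on OP50 and BW25113, against 11.5% and 5.68% of all genes. Between foods the ugt shares were 23.3% in the mutant and 1.67% in wild type, against 9.36% and 3.33% of all genes. The differences between these families were not tested.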

How the data were processed

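For these libraries, stranded and made after removal of ribosomal RNA, the authors estimated transcript abundance with Kallisto on WBcel235 and compared groups with DESeq2. The submitters' processing notes name kallisto 0.46.1, DESeq2 1.24 and Cufflinks 2.2.1. Both deposited tables were used. The first holds a signal per gene, estimated counts that the authors divided by size factors (normalized counts). The second holds deposited FPKM values per gene, and the tool that made it is not given in the sources used here. All per-sample columns were mapped to samples by name (0 unused). Raw counts were not analysed here. Low normalized counts were whole multiples of a step, within 0.05, for 65.1% to 89.2% of the values in a sample. Whole reads were therefore not recovered and no count test was run.

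Genes with a mean normalized count of at least 10 over the 16 samples were tested on log2(normalized count + 1), a scale that understates changes of low genes, with limma 3.58.1 in R 4.3.3 (moderated variances with a trend, Benjamini-Hochberg adjustment over all genes tested). Pairwise fits used the 8 samples compared and the interaction used all 16. Calls required an adjusted p below 0.05 and an absolute log2FC over 0.5. Single values were also compared with a two-sided exact permutation test over the 70 divisions of 8 samples. Data were also simulated with 200 of 15799 genes changed. For the comparison of genotypes on OP50, 145 were recovered at a log2 change of 0.75, 156 at 1 and 191 at 2. False calls there numbered 4, 6 and 1. For the interaction, 107, 146 and 174 were recovered, with 3, 9 and 6 false calls. The simulation drew independent noise for each gene and sample, with no shared replicate deviations and few changed genes. In the data 1816 genes were called between genotypes on OP50, so these counts give no error rate for the real comparisons.

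Values of every sample are printed for up to 6 members with the largest change among those called in each comparison, and for the 3 with the highest mean FPKM; the others printed in full (ugt-22, ugt-6, ugt-4, ugt-1, ugt-20, ugt-26 and ugt-18) were chosen after their values were seen. The members, the rule and the gene lists were chosen with earlier results of these data known. The main fits did not take replicate numbers as pairs, and the replicate block was fitted only as an alternative. Whether same-numbered samples deviated together in every pair was examined by correlation (10252 genes with a mean of at least 100). The correlations were 0.197 to 0.299 between genotypes on OP50, 0.104 to 0.47 between genotypes on BW25113 and 0.212 to 0.564 between foods in wild type. Between foods in rnp-6(G281D) they were -0.064 to 0.273, so same-numbered samples did not deviate together in every pair. Alternatives were other pseudocounts, filters, scalings and fold limits, the FPKM table, a replicate block, 1 fit of all samples, and leaving out each sample. Coordinates, gene types and protein lengths come from Ensembl 115 (WBcel235, a release later than the authors' annotation), in which all 66 members were found by identifier. H23N18.4, named ugt-67 in that annotation, is not a member by name.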

Additional observations from a re-analysis of the deposited data

Results flagged for a closer look

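For ugt-19, 1 sample stood apart from the rest of its group. rnp-6(G281D) BW25113 replicate 2 had 359 normalized counts, and the other 3 samples of that group had between 470 and 477. For ugt-57, wild type OP50 replicate 1 had 8.57 normalized counts, and the other 3 samples of that group had between 14.0 and 14.4. Among the 14 named members, 56 groups of 4 samples were examined for such gaps and 2 were found, where chance flags about 1 in 20 groups, or 2.8 here.

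By the interaction test, 9 members were called for a different response to the food in the 2 genotypes (15%, against 2.42% of all genes). The diet log2FC in rnp-6(G281D) minus that in wild type was -1.31 for ugt-62, -1.25 for ugt-2, -1.05 for ugt-19, -0.82 for ugt-44, -0.78 for ugt-50, -0.73 for ugt-43, 0.54 for ugt-41, 0.71 for ugt-6 and 1.47 for ugt-53. The calls of ugt-43, ugt-41 and ugt-6 were each lost without any 1 of 9 of the 16 samples.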

How the results depend on the processing

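Of 921 values for the 51 single calls under alternative settings, 835 kept the call, 85 kept the direction but were no longer called, and 1 changed direction, ugt-20 between genotypes on OP50, with a log2FC of 0.0359 on FPKM. These values leave out the changes of the fold limit, and under all other alternatives 37 of the 51 calls were kept. Without a fold limit, 36 of 60 members were called between genotypes on OP50 (against 29.2% of all genes), 24 between foods in rnp-6(G281D) (18.1%), 9 between foods in wild type (6.61%) and 19 between genotypes on BW25113 (14.6%). With an absolute log2FC over 1, the counts were 3 between genotypes on OP50 (4.27% of all genes), 4 between foods in rnp-6(G281D) (4.27%), 4 between genotypes on BW25113 (2.28%) and 4 in the interaction (1.04%). Without the filter on low values, 9 of 66 members were called between foods in rnp-6(G281D) (3.19% of all genes). Between foods in wild type, limma called 0 members without the filter (18 at an unadjusted p below 0.05), 0 with a mean of at least 100 (18 unadjusted), 0 on FPKM (17 unadjusted) and 2 with quantile normalization (against 0.667%, 2.63%, 2.97% and 3.16% of all genes). With the replicate block, 17 members were called between genotypes on OP50 (11.9% of all genes), 15 between foods in rnp-6(G281D) (8.71%), 2 between foods in wild type (4.49%), 12 between genotypes on BW25113 (7.01%) and 13 in the interaction (2.99%). In the fit of foods in rnp-6(G281D), where the numbers did not pair the samples, the block lost the call of ugt-40 (adjusted p = 0.0574). It changed no other call than those of ugt-40, ugt-66, ugt-4 and ugt-36 between pairs of groups, and in the interaction it gained ugt-51, ugt-32, ugt-25 and ugt-66. Leaving out 1 sample gave 14 to 20 calls between genotypes on OP50, 11 to 15 between foods in rnp-6(G281D), 0 to 2 between foods in wild type, 10 to 11 between genotypes on BW25113 and 6 to 11 in the interaction. The wild type count was 0 without OP50 replicates 1, 3 or 4 or BW25113 replicates 2 or 3 (18 to 22 unadjusted), and 2 without BW25113 replicate 1. Between foods in rnp-6(G281D), calls were lost for ugt-36 without OP50 replicates 1, 2 or 4 or BW25113 replicates 1, 2 or 3, for ugt-40 without OP50 replicates 1, 3 or 4 or BW25113 replicates 2, 3 or 4, and for ugt-8 without OP50 replicates 1, 3 or 4 or BW25113 replicates 1, 2 or 4, with adjusted p between 0.0544 and 0.105. Between genotypes on OP50, the log2FC fell short of the limit for ugt-20 without wild type replicates 1 or 2 or rnp-6(G281D) replicates 2 or 3, and for ugt-41 without wild type replicates 3 or 4 or rnp-6(G281D) replicates 1 or 2, lying between -0.50 and -0.45. In the interaction, calls were lost for ugt-43 without wild type OP50 replicates 1 or 4, rnp-6(G281D) OP50 replicates 1 or 2, wild type BW25113 replicates 2, 3 or 4 or rnp-6(G281D) BW25113 replicates 2 or 4, for ugt-6 without wild type OP50 replicates 1, 3 or 4, rnp-6(G281D) OP50 replicate 2, any wild type BW25113 replicate or rnp-6(G281D) BW25113 replicate 2, and for ugt-41 without wild type OP50 replicates 3 or 4, rnp-6(G281D) OP50 replicates 1 or 2, wild type BW25113 replicates 1 or 3 or rnp-6(G281D) BW25113 replicates 2, 3 or 4. Calls also lost were those of ugt-56 on OP50 (adjusted p = 0.0605) and ugt-43 in the interaction (0.0572) without the filter, of ugt-6 (0.0991) and ugt-41 (0.0534) in the interaction on FPKM, of ugt-41 with equal totals (0.0564), and of ugt-43 in the interaction (0.0789), ugt-51 on BW25113 and ugt-36, ugt-40 and ugt-8 between foods in rnp-6(G281D) with quantile normalization. Members with few reads, such as ugt-33, ugt-56 and ugt-57, have the widest standard errors of the named members.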
